A study of Mus musculus with 2 samples.

Results

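Spinous keratinocytes were 1153 of 7946 retained cells (14.5%, 95% interval 13.7 to 15.3%) in skin of mice treated with Shi-Bi-Man on top of imiquimod, and 172 of 11019 retained cells (1.56%, 1.34 to 1.81%) in skin of mice given imiquimod alone. In all, 1325 of 18965 cells were counted as spinous. They were chosen by their own transcripts. Krt1 and Krt10 together made up at least 100 of every 10000 counts of the cell. Transcripts of Lor, Flg and Flg2 stayed under 20 per 10000, those of Krt6a, Krt6b and Krt16 under 30, and those of Krt79 and Cst6 under 50. Ptprc, which encodes the leukocyte antigen CD45, was at 0. A retained cell had at least 200 detected genes and at most 20% mitochondrial counts.

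The spinous layer lies above the basal layer of the epidermis. Its cells have left the basement membrane, have exchanged the keratin pair Krt5 and Krt14 for Krt1 and Krt10, and are held together by many desmosomes; higher up they become granular cells that make loricrin, filaggrin and the lipids of the skin barrier. Imiquimod, a Toll-like receptor agonist applied as a cream, gives mice a psoriasis-like skin inflammation in which the epidermis thickens, differentiation is disturbed and keratinocytes make stress keratins, alarmins and antimicrobial proteins.

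The study set Shi-Bi-Man, described in its title as a natural product, against this inflammation. Dorsal skin of C57BL/6 mice aged 7 weeks was profiled by 3′ single-cell RNA sequencing, with 1 library for Shi-Bi-Man on top of imiquimod, named the Shi-Bi-Man library below, and 1 for imiquimod alone, named the imiquimod library; skin without imiquimod was not analysed here. The number of animals behind each library, the doses and the schedule are not given in the sources used here. With 1 library per group no difference below has a replicate check, and treatment, animal and library cannot be told apart. No test was possible, so intervals are given at 95%; they cover counting error only, and they are too narrow if counts include copies of 1 molecule.

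The libraries held 8054 barcodes and 20837259 counts for Shi-Bi-Man, and 11316 barcodes and 28920316 counts for imiquimod alone. Median depth per retained cell was 1784 counts with Shi-Bi-Man and 1616 counts with imiquimod alone. The spinous cells were deeper. Their median was 4184 counts and 1500 genes with Shi-Bi-Man, and 4687.5 counts and 1690.5 genes with imiquimod alone. Their median mitochondrial share was 5.19% with Shi-Bi-Man and 5.11% with imiquimod alone. The libraries shared 49 barcode sequences, of which 8 were spinous cells in the Shi-Bi-Man library, 1 was a spinous cell in the imiquimod library, and 0 were spinous in both.

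The share of spinous cells was 9.30-fold higher with Shi-Bi-Man (log2 ratio 3.21, interval 2.98 to 3.46). They held 24.1% of that library's retained counts, against 2.89% with imiquimod alone. The ratio was smaller before the limits on other transcripts were applied. Krt1 and Krt10 alone reached 100 per 10000 in 1439 cells (18.1%, 17.3 to 19.0%) with Shi-Bi-Man, and in 498 cells (4.52%, 4.14 to 4.92%) with imiquimod alone, a 4.01-fold ratio (log2 2.002, 1.85 to 2.15). Of those cells 80.1% (78.0 to 82.2%) met the remaining conditions with Shi-Bi-Man, and 34.5% (30.4 to 38.9%) with imiquimod alone.

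The cells that failed a single condition were of different kinds in the libraries. The limit on the cornified-layer genes Lor, Flg and Flg2 alone left out 136 cells with Shi-Bi-Man and 1 cell with imiquimod alone. The limit on Krt6a, Krt6b and Krt16, keratins of wounded and hyperproliferative epidermis, alone left out 28 cells with Shi-Bi-Man and 160 with imiquimod alone. The limit on Krt79 and Cst6, taken here as upper-follicle genes, alone left out 16 cells with Shi-Bi-Man and 52 with imiquimod alone. Ptprc alone left out 77 cells with Shi-Bi-Man and 20 with imiquimod alone. More than 1 condition was failed by 29 cells with Shi-Bi-Man and 93 with imiquimod alone. Counting every failure, the wound-keratin limit was exceeded by 38 of the 1439 Krt1/Krt10-high cells (2.64%) with Shi-Bi-Man, against 243 of 498 (48.8%) with imiquimod alone. Where that limit is put therefore moves the number: with no limit, a setting chosen after the data were seen, the members were 1181 with Shi-Bi-Man and 332 with imiquimod alone, and the log2 ratio of their shares was 2.30.

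**Figure D1:**
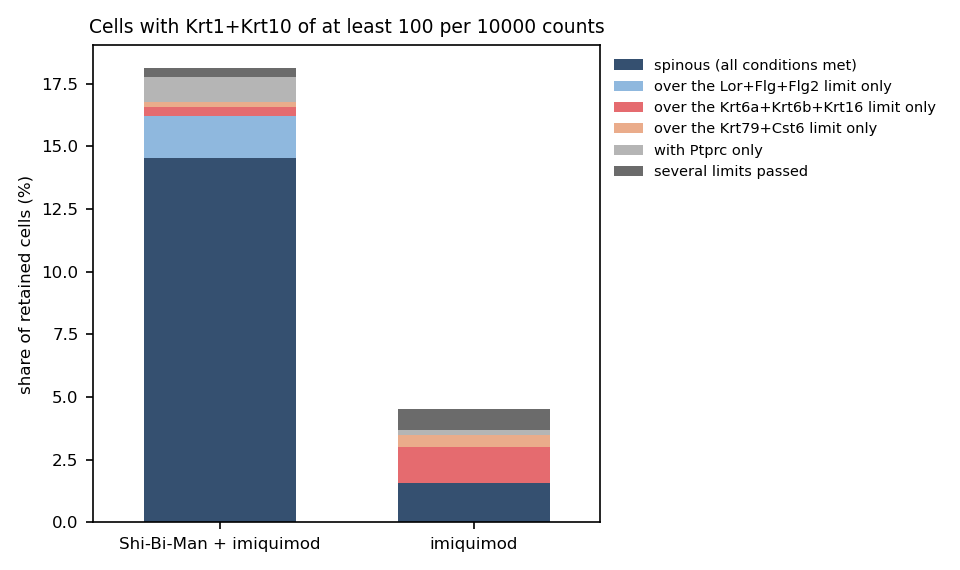
Cells with Krt1 and Krt10 of at least 100 per 10000 counts, stacked by whether they met every condition or which one they failed, with Shi-Bi-Man left of imiquimod alone and the share of retained cells, in percent, on the vertical axis. The 1439 cells of the Shi-Bi-Man library were mostly spinous (1153), and in the imiquimod library the 172 spinous cells stood beside 160 cells left out by Krt6a, Krt6b and Krt16 alone.

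Some cells lay near the limits. Between 100 and 133 per 10000 for Krt1 plus Krt10 were 94 spinous cells (8.15%) with Shi-Bi-Man and 34 (19.8%) with imiquimod alone. Just outside, from 75 to 100, were 129 cells with Shi-Bi-Man and 28 with imiquimod alone. For the wound keratins, 25 spinous cells (2.17%) with Shi-Bi-Man and 35 (20.3%) with imiquimod alone lay between 22.5 and 30 per 10000, and 19 otherwise qualifying cells with Shi-Bi-Man and 35 with imiquimod alone lay between 30 and 40. The cornified-layer limit had 34 cells with Shi-Bi-Man and 2 with imiquimod alone just inside, and 22 with Shi-Bi-Man and 0 with imiquimod alone just outside. Imiquimod cells were thus more often close to the Krt1 plus Krt10 and wound-keratin limits.

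The label was checked against free RNA. In fibroblast-range cells, which had collagen and decorin transcripts of at least 100 per 10000, Krt5 plus Krt14 under 50 and no Ptprc, and which should lack Krt1 and Krt10, the median of Krt1 plus Krt10 was 9.02 per 10000 with Shi-Bi-Man and 0 with imiquimod alone. It reached 100 in 53 of 2318 such cells (2.29%) with Shi-Bi-Man and in 6 of 1913 (0.314%) with imiquimod alone, at median depths of 2075 and 1960 counts. In the spinous cells the median was 430 per 10000 (quartiles 280 and 564) with Shi-Bi-Man and 275 (145 and 443) with imiquimod alone. The 3 markers that the rule did not use, Krt77, Mt4 and Krtdap, were all detected in the spinous cells of both libraries. Krtdap was in most cells of either, and Krt77 and Mt4 in a minority of cells with imiquimod alone. Krt5 plus Krt14 were under 20 per 10000 in 853 of 1153 spinous cells with Shi-Bi-Man and in 55 of 172 with imiquimod alone. Medians of Krt5 plus Krt14 were 3.21 and 45.9 per 10000. Most imiquimod cells counted as spinous thus still held basal keratin transcripts, and the name fits them less closely.

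The promoters of 4 of the 5 spinous markers are shown with that of S100a8, because the libraries differed most in Krt77 and Mt4 among the markers and in S100a8 among the psoriatic genes. Each sequence holds the 250 bases before the RefSeq start site, 5′ to 3′ on the gene's strand, in GRCm38.p6. They lie at chr15:101869706-101869955 on the minus strand for Krt77, chr8:94136954-94137203 on the plus strand for Mt4, chr7:30787655-30787904 on the plus strand for Krtdap, chr11:99389365-99389614 on the minus strand for Krt10 and chr3:90668821-90669070 on the plus strand for S100a8. Capitals mark the TATA motif TATANA, overlapping matches joined, and in Krtdap also the AP-1 motif TGANTCA.
Krt77: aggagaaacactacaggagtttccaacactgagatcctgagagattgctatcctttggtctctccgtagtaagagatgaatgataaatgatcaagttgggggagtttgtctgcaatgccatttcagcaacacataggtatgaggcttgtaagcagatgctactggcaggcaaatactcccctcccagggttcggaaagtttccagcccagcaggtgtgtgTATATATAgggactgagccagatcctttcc
Mt4: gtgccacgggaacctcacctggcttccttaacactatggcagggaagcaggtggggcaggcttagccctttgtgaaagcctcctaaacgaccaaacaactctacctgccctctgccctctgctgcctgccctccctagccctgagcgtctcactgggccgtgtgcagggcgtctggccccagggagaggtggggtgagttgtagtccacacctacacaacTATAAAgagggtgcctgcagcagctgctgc
Krtdap: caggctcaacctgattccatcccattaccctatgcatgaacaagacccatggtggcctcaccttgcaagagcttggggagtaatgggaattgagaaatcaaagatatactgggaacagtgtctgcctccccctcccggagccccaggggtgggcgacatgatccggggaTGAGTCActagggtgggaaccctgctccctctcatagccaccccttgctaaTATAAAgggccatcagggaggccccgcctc
Krt10: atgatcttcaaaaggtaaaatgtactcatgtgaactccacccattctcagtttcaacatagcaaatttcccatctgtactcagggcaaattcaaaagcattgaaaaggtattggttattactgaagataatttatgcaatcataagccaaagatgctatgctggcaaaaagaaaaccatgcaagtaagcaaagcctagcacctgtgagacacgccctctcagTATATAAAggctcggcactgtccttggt
S100a8: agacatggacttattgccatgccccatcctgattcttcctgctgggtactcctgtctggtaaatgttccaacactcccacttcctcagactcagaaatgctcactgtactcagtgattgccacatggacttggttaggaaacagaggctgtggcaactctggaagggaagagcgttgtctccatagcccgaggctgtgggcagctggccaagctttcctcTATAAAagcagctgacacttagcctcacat
All 5 windows held TATANA, with its first base 28 to 30 bases before the start. Of 32851 RefSeq windows of the same length, 16.4% held it on the gene's strand and 22.6% on either strand. TGANTCA stood in the Krtdap window alone, with its first base at -81, and in 6.75% of all windows. These matches describe letters only. Krt77 lies 7936 bases from Krt1 on chromosome 15 in GRCm38 (Krt77 at chr15:101858731-101869705, Krt1 at chr15:101845426-101850794, both on the minus strand), inside the type II keratin cluster.

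Levels below are summed counts of the spinous cells of a library per 1000000 of their counts (CPM), with exact Poisson intervals, and ratios are log2 of Shi-Bi-Man over imiquimod alone with 0.5 added to each count. A gene is called higher or lower from a 2-fold ratio on, among genes with at least 20 counts over both sums. Of 10502 such genes 690 (6.57%) were at least 2-fold higher and 985 (9.38%) at least 2-fold lower with Shi-Bi-Man. Of the 690, 84 had 0 counts with imiquimod alone and a ratio under 2-fold against a floor of 3 counts, so they are counted as higher through the added 0.5; without them 606 were higher. The median ratio of all genes was -0.13. Scaling by TMM moved it by 0.11 and gave 814 higher and 766 lower, and DESeq2 size factors moved it by 0.10 and gave 806 and 777.

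Among the keratins of the suprabasal layers, Krt1 and Krt10 chose the cells and are given without support. Krt1 stood at 16428 CPM with Shi-Bi-Man and 15994 CPM with imiquimod alone. Krt10, its type I partner, stood at 30359 CPM with Shi-Bi-Man and 17572 CPM with imiquimod alone. In spinous cells with Krt5 plus Krt14 under 20 per 10000, a subset described further on, Krt1 stood at 18158 CPM with Shi-Bi-Man and 21977 CPM with imiquimod alone, and Krt10 at 34630 CPM with Shi-Bi-Man and 29929 CPM with imiquimod alone. The order of the libraries for Krt1 thus turned round in that subset.

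Krt77, a further type II keratin of the suprabasal epidermis, separated the libraries more than the other spinous markers. It had 11231 counts, or 2243 CPM (2202 to 2285), with Shi-Bi-Man, against 34 counts, or 41.4 CPM (28.7 to 57.9), with imiquimod alone, a log2 ratio of 5.74 (5.27 to 6.29). It was detected in 78.3% of spinous cells with Shi-Bi-Man and in 6.98% with imiquimod alone, where 1 cell held 10 of the 34 counts. After every cell had been thinned to 500 counts, which left out 0 spinous cells, the shares were 45.2% with Shi-Bi-Man and 1.74% with imiquimod alone, where the share rested on 3 cells. Of fibroblast-range cells with Krt1, Krt10, Krt5 and Krt14 together under 50 per 10000, thinned in the same way, 77 of 2140 (3.60%) held it with Shi-Bi-Man and 2 of 1883 (0.106%) with imiquimod alone.

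Mt4, the metallothionein of stratified epithelia, stood at 1083 CPM (1054 to 1112) with Shi-Bi-Man and 193 CPM (164 to 225) with imiquimod alone, a log2 ratio of 2.49 (2.26 to 2.73). It was detected in 81.4% of spinous cells with Shi-Bi-Man and 30.2% with imiquimod alone. After thinning to 500 counts the shares were 36.1% with Shi-Bi-Man and 9.30% with imiquimod alone, against 1.45% of the same fibroblast-range cells with Shi-Bi-Man and 0% with imiquimod alone (0 of 1883, which allows a share of up to 0.159% at 3 counts of the total; this limits cells with a count, not cells expressing the gene). The ubiquitous metallothioneins were level by comparison, with Mt1 at 1864 CPM with Shi-Bi-Man and 1784 CPM with imiquimod alone. Mt2 stood at 930 CPM with Shi-Bi-Man and 792 CPM with imiquimod alone. Krtdap, a small secreted protein of differentiating keratinocytes, stood at 8400 CPM with Shi-Bi-Man and 6090 CPM with imiquimod alone, a log2 ratio of 0.46. It was detected in 97.6% of spinous cells and 38.3% of the same fibroblast-range cells with Shi-Bi-Man, and in 96.5% of spinous cells and 23.5% of fibroblast-range cells with imiquimod alone. After thinning it was detected in 91.3% of spinous cells and 13.2% of fibroblast-range cells with Shi-Bi-Man, and in 83.1% of spinous cells and 7.59% of fibroblast-range cells with imiquimod alone. So of the 3 markers outside the rule, Krtdap was detected in most spinous cells of either library, Mt4 was higher with Shi-Bi-Man and Krt77 was found in few cells of the imiquimod library.

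**Figure D2:**
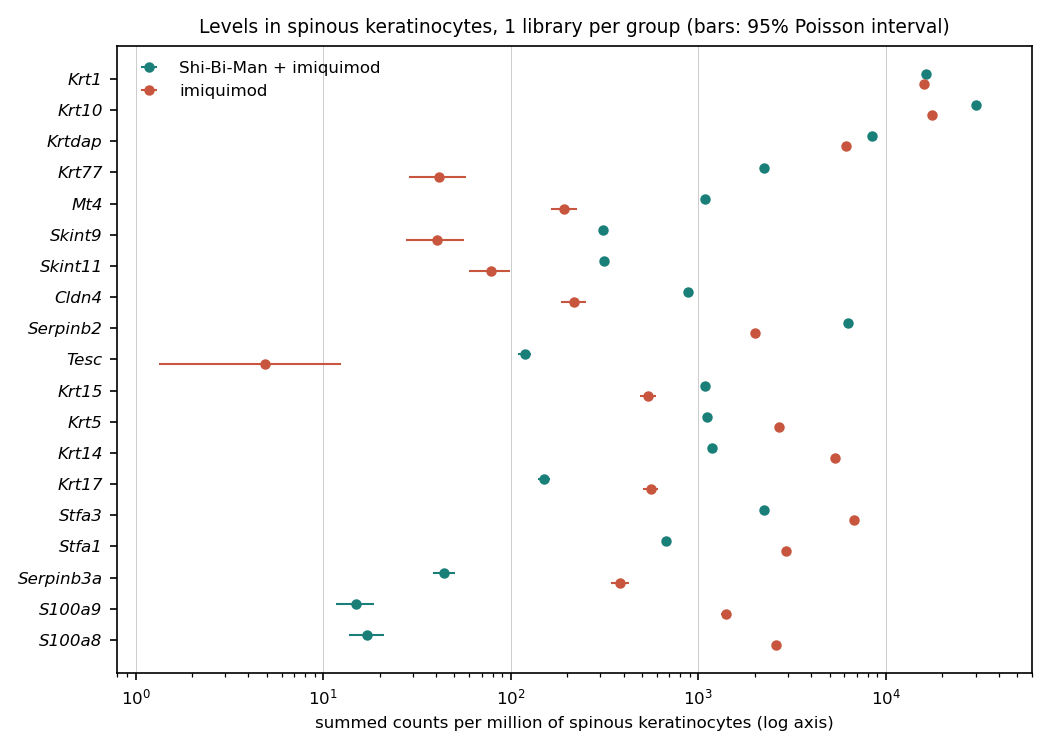
Summed level of named genes in spinous keratinocytes, in CPM on a log axis, with Shi-Bi-Man and imiquimod as separate points and bars for the 95% Poisson interval of 1 library per group. Krt77 (2243 against 41.4 CPM) and S100a8 (17.2 against 2601 CPM) lie farthest apart in opposite directions, while the points of Krt1 nearly coincide.

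The remaining genes of the pathway were described by list, with the number at least 2-fold apart and the median ratio of each list beside the shares and the median of all genes above. Of the suprabasal keratins and envelope precursors 20 had enough counts; 8 were at least 2-fold higher and 1 lower with Shi-Bi-Man, with a median ratio of 0.80, or 0.65 with Krt2 at its floor of 3 counts. Krt2 is one of the 8 through the added 0.5 only: it had 22 counts with Shi-Bi-Man and 0 with imiquimod alone, at least 1.20-fold higher against that floor. Sprr1a, a small proline-rich cross-bridge of the cornified envelope, stood at 12304 CPM with Shi-Bi-Man and 6074 CPM with imiquimod alone (log2 1.02). Higher were also Krt78 (2.88), the envelope scaffold involucrin (Ivl, 1.58), cornifelin (Cnfn, 1.75) and hornerin (Hrnr, 4.93, with 1 count in imiquimod cells). Cdsn, the corneodesmosome adhesion protein, was higher at 1.26, but stood at -0.14 with Lor, Flg and Flg2 under 10 per 10000 and at -0.42 with no limit on the wound keratins. Rptn, repetin, was the member that was lower (-1.19), and it stood at 0.64 with Lor, Flg and Flg2 under 10 and at 1.10 with Krt79 and Cst6 under 25.

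Genes of the basal layer were described in the same way. With 19 tested, 1 was higher and 3 lower (median -0.42). Without Krt5 and Krt14, 1 of 17 was higher and 1 lower (median -0.42). Krt14 stood at 1185 CPM with Shi-Bi-Man and 5331 CPM with imiquimod alone (-2.17). Krt5 stood at 1106 CPM with Shi-Bi-Man and 2700 CPM with imiquimod alone (-1.29). Krt15, a keratin of basal cells, was the higher one at 1088 CPM with Shi-Bi-Man and 540 CPM with imiquimod alone (1.01). Cell by cell, Krt5 plus Krt14 had a median of 3.21 per 10000 and were at 0 in 33.7% of spinous cells with Shi-Bi-Man, against 45.9 per 10000 and 5.81% with imiquimod alone.

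Adhesion genes were mixed. Of 13 desmosome genes 2 were higher and 3 lower with Shi-Bi-Man; their median ratio was 0.28. Dsg1a, a desmoglein of the upper layers, stood at 887 CPM with Shi-Bi-Man and 421 CPM with imiquimod alone (1.07), whereas Dsg3, a desmoglein of the lower layers, stood at 63.1 CPM with Shi-Bi-Man and 176 CPM with imiquimod alone (-1.48). Dsg2 (-1.47) and Dsc2 (-1.65) were lower as well. Desmoplakin (Dsp), the linker to keratin filaments, had 2000 CPM with Shi-Bi-Man and 1649 CPM with imiquimod alone. Tight, adherens and gap junction genes numbered 19, of which 3 were higher and 0 lower (median 0.50). Cldn4, a claudin of the tight-junction layer, stood at 879 CPM with Shi-Bi-Man and 217 CPM with imiquimod alone (2.01). Occludin (Ocln, 1.07) and the connexin gene Gjb5 (1.14) were the others. Gja1, encoding connexin 43, had 468 CPM with Shi-Bi-Man and 776 CPM with imiquimod alone (-0.73).

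Regulators of the spinous program showed little that passed 2-fold. Of 12 Notch pathway genes 2 were higher and 1 lower. The receptor gene Notch2 stood at 72.1 CPM with Shi-Bi-Man and 30.5 CPM with imiquimod alone. Hes1, a target gene of the pathway, stood at 142 CPM with Shi-Bi-Man and 304 CPM with imiquimod alone. Among 31 transcription factors of differentiation 2 were higher and 1 lower (median 0.21). These were Grhl1 (1.08) and Dlx3 (1.30), factors of the upper layers, and Kdf1 (-1.26), a differentiation regulator. The ratio of Dlx3 rests on few imiquimod counts. It had 0 counts in the low and 0 in the high set of imiquimod cells ranked by Krt5 plus Krt14, described further on. Klf4, a factor of barrier formation, stood at 2375 CPM with Shi-Bi-Man and 2059 CPM with imiquimod alone (0.21).

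Enzymes of the skin barrier were found on either side. Among 31 barrier lipid genes 5 were higher and 5 lower (median 0.40). The higher ones included the epidermal lipoxygenases Alox12b, at 74.9 CPM with Shi-Bi-Man and 12.2 CPM with imiquimod alone (2.55), Aloxe3 (1.88) and Alox12 (2.34). The lower ones were led by the fatty acid elongase Elovl3, at 31.2 CPM with Shi-Bi-Man and 221 CPM with imiquimod alone (-2.82), and the fatty acid hydroxylase Fa2h, at 40.3 CPM with Shi-Bi-Man and 165 CPM with imiquimod alone (-2.03), with Elovl6 (-1.73) and the ceramide synthase Cers4 (-1.87). Sebocytes also make Elovl3 and Fa2h. Summed sebocyte markers stood at 383 CPM in spinous cells with Shi-Bi-Man and at 1510 CPM with imiquimod alone. In the imiquimod sum 1 cell held 253 of the 661 counts of the desaturase Scd1. These markers include Elovl3 itself, so the sum is not independent of its ratio. In fibroblast-range cells they stood at 807 CPM with Shi-Bi-Man and 1058 CPM with imiquimod alone. The part of sebocytes in the result was not tested.

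The list of proteases and inhibitors held 26 tested genes, 6 of them higher and 4 lower (median 0.31). Kallikreins that cleave corneodesmosomes were higher. Klk5 stood at 103 CPM with Shi-Bi-Man and 20.7 CPM with imiquimod alone (2.28). Klk7 stood at 327 CPM with Shi-Bi-Man and 99.9 CPM with imiquimod alone (1.70, but -1.04 with no limit on Krt79 and Cst6). Their inhibitor Spink5 stood at 691 CPM with Shi-Bi-Man and 240 CPM with imiquimod alone (1.52). Serpinb2, encoding plasminogen activator inhibitor 2, stood at 6310 CPM with Shi-Bi-Man and 2014 CPM with imiquimod alone (1.65). Lower were Klk6 (-1.94), Klk13 (-2.12), the protease Ctsc (-1.24) and Serpinb3a (-3.12), a serpin that stood at 44.1 CPM with Shi-Bi-Man and 384 CPM with imiquimod alone.

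The Skint family had the highest median of all 18 lists. These genes encode butyrophilin-like membrane proteins of mouse epidermis and thymus, and Skint1 is known for the selection of dendritic epidermal T cells. Of 11 tested 6 were higher and 0 lower with Shi-Bi-Man, with a median of 1.30. Skint9 stood at 311 CPM with Shi-Bi-Man and 40.2 CPM with imiquimod alone (2.93, 2.45 to 3.49), and Skint11 at 316 CPM with Shi-Bi-Man and 78.0 CPM with imiquimod alone (2.01, 1.66 to 2.40). Skint5 (2.92), Skint6 (1.95), Skint7 (1.30) and Skint10 (1.70) were the others, while Skint3 had 141 CPM with Shi-Bi-Man and 85.3 CPM with imiquimod alone (0.72). After thinning to 500 counts, Skint9 was detected in 10.5% of spinous cells with Shi-Bi-Man and 1.74% with imiquimod alone, where the share rested on 3 cells. Of fibroblast-range cells 0.467% held it with Shi-Bi-Man and 0.106% with imiquimod alone. Reads of close relatives can be split between copies by the counting, so single members of the Skint, Stfa, Sprr2, Lce3 and Serpinb3 families are uncertain.

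Psoriatic and interleukin-17 response genes were more often lower than higher. Of 24 tested 1 was higher and 11 lower with Shi-Bi-Man, with a median of -0.75. Without the 3 keratins that the rule capped, 1 of 21 was higher and 9 lower (median -0.53), and the cell cycle list then had the lowest median (-0.56). S100a8, a subunit of the alarmin calprotectin, had 86 counts, or 17.2 CPM (13.7 to 21.2), with Shi-Bi-Man, against 2134 counts, or 2601 CPM (2492 to 2714), with imiquimod alone, a log2 ratio of -7.23 (-7.57 to -6.93). It was detected in 3.21% of spinous cells with Shi-Bi-Man and 73.3% with imiquimod alone. Its partner S100a9 stood at 14.98 CPM with Shi-Bi-Man and 1399 CPM with imiquimod alone (-6.54). It was detected in 3.21% of spinous cells with Shi-Bi-Man and 63.4% with imiquimod alone. Both subunits were thus seen in most imiquimod cells and in few cells of the other library.

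Neutrophils also make both alarmins. In fibroblast-range cells S100a8 stood at 1.83 CPM with Shi-Bi-Man and 77.6 CPM with imiquimod alone, and over all retained cells at 14.8 CPM with Shi-Bi-Man and 897 CPM with imiquimod alone. After thinning to 500 counts it was found in 0.520% of spinous cells and 0.187% of fibroblast-range cells with Shi-Bi-Man, and in 41.3% of spinous cells and 3.98% of fibroblast-range cells with imiquimod alone. The Shi-Bi-Man shares rested on 6 spinous and 4 fibroblast-range cells. Summed markers of myeloid cells stood at 270 CPM in spinous cells with Shi-Bi-Man and 635 CPM with imiquimod alone, and in fibroblast-range cells at 349 CPM with Shi-Bi-Man and 883 CPM with imiquimod alone. Their part in the result was not tested.

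The stefin A cysteine protease inhibitors were lower with Shi-Bi-Man too. Stfa3 stood at 2247 CPM with Shi-Bi-Man and 6755 CPM with imiquimod alone (-1.59). Stfa1 stood at 673 CPM with Shi-Bi-Man and 2917 CPM with imiquimod alone (-2.11). Krt17, a wound keratin outside the rule, stood at 150 CPM with Shi-Bi-Man and 557 CPM with imiquimod alone (-1.89). The beta-defensin gene Defb3 had 4.59 CPM with Shi-Bi-Man and 36.6 CPM with imiquimod alone (-2.99), and the cytokine gene Il24 1.997 CPM with Shi-Bi-Man and 36.6 CPM with imiquimod alone (-4.15). Lipocalin 2 (Lcn2) was lower at -4.63, although 1 cell held 21 of its 42 counts with imiquimod alone. Sprr2h was the member that was higher (1.07), and it stood at -0.05 with no limit on the wound keratins.

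Levels of the genes that the rule capped are shaped by its limits and are only described. Krt6a stood at 155 CPM with Shi-Bi-Man and 516 CPM with imiquimod alone. Krt6b stood at 19.8 CPM with Shi-Bi-Man and 141 CPM with imiquimod alone. Krt16 stood at 377 CPM with Shi-Bi-Man and 712 CPM with imiquimod alone. Krt79 stood at 47.9 CPM with Shi-Bi-Man and 425 CPM with imiquimod alone. Cst6 stood at 476 CPM with Shi-Bi-Man and 314 CPM with imiquimod alone. Among spinous cells ranked by Krt5 plus Krt14, described further on, Cst6 was lower in the high than in the low set. The log2 ratio was -1.59 with Shi-Bi-Man and -1.77 with imiquimod alone, so Cst6 ran as most suprabasal genes did. Flg had 245 CPM with Shi-Bi-Man and 51.2 CPM with imiquimod alone. Lor had 20.6 CPM with Shi-Bi-Man and 3.66 CPM with imiquimod alone. Flg2 had 4.39 CPM with Shi-Bi-Man and 0 CPM with imiquimod alone.

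Other cytokine genes split. Among 24 interleukin-1 family and other cytokine genes 2 were higher and 5 lower (median -0.28). Il1a (1.94) and Il34 (1.44) were higher, and Il18 (-2.11), Cxcl14 (-1.50), Tslp (-1.33), Ccl27a (-1.31) and Il1b (-1.10) lower. The 2 higher ratios rest on few imiquimod counts. In the low and high sets of imiquimod cells ranked by Krt5 plus Krt14, described further on, Il1a had 0 and 0 counts and Il34 1 and 0. Interferon response genes numbered 19, with 1 higher and 3 lower (median -0.18). The higher one was Gbp2, at 1.12 over all members and -0.45 in members with Krt5 plus Krt14 under 20 per 10000. The lower ones were Isg15 (-1.24), Rtp4 and Gbp7. Rtp4 stood at -1.31, but at 0.74 in members with Krt5 plus Krt14 under 20 per 10000 and at 0.42 with Krt1 plus Krt10 of at least 200. Gbp7 stood at -1.02, but at 0.38 and 0.24 under these settings and at 0.076 with no limit on the wound keratins.

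Cell cycle genes numbered 29, and with Shi-Bi-Man 0 were higher and 8 lower (median -0.56). Ccnb2, a mitotic cyclin, stood at 74.7 CPM with Shi-Bi-Man and 178 CPM with imiquimod alone (-1.26). Mki67 stood at 36.5 CPM with Shi-Bi-Man and 53.6 CPM with imiquimod alone. Tyms, among the 8 at -1.42, stood at 1.54 in members with Krt5 plus Krt14 under 20 per 10000, where imiquimod cells held 0 counts. Cdkn1a, the inhibitor p21 of the cell cycle, had 2444 CPM with Shi-Bi-Man and 1541 CPM with imiquimod alone (0.66).

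The last lists held few genes past 2-fold. Among 24 heat shock and immediate early genes 1 was higher and 0 lower: Hspb1, the small heat shock protein of keratinocytes, at 1806 CPM with Shi-Bi-Man and 846 CPM with imiquimod alone. Glycolysis and hypoxia genes numbered 21, with 0 higher and 3 lower (median -0.33). The glucose transporter gene Slc2a1 (-1.11) was one of them. Metallothionein and antioxidant genes numbered 22, with Mt4 and Srxn1 higher and Gsta4 and Gpx4 lower. Of 21 calcium-handling and S100 genes 1 was higher, the channel gene Trpv3 (1.28), and 1 lower, S100a1. Glucocorticoid and circadian genes numbered 16, with 3 higher and 1 lower (median 0.25). Tsc22d3, a glucocorticoid-induced gene, stood at 32.2 CPM with Shi-Bi-Man and 8.53 CPM with imiquimod alone (1.82). The clock-output factor Hlf stood at 33.0 CPM with Shi-Bi-Man and 7.31 CPM with imiquimod alone (2.06). Both ratios rest on few imiquimod counts. In the low and high sets of imiquimod cells ranked by Krt5 plus Krt14, described further on, Tsc22d3 had 4 and 3 counts and Hlf 0 and 4.

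**Figure D3:**
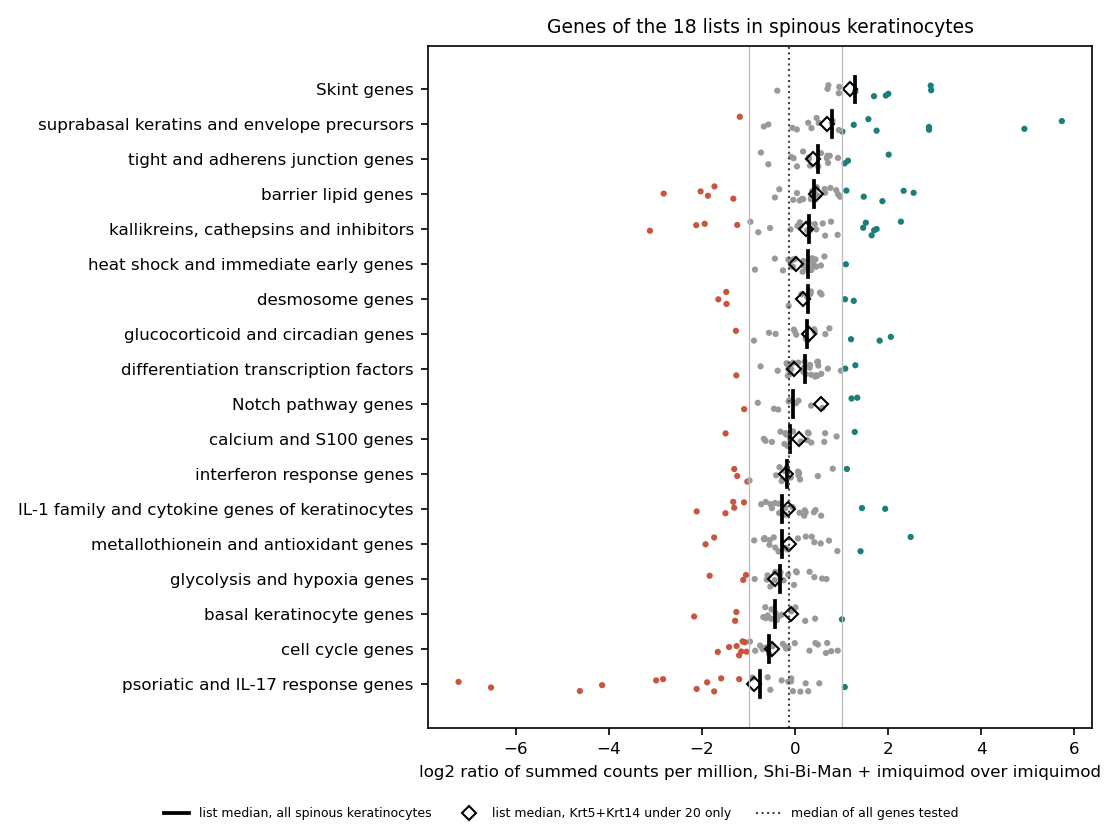
Log2 ratio of each tested gene of the 18 lists in spinous keratinocytes, Shi-Bi-Man over imiquimod alone, 1 point per gene, coloured where it is at least 2-fold higher or lower, with a bar at the median of each list, a diamond at its median in members with Krt5 plus Krt14 under 20 per 10000, and a dotted line at the median of all genes tested (-0.13). The Skint genes lie farthest to the right (median 1.30) and the psoriatic and interleukin-17 response genes farthest to the left (median -0.75, or -0.53 without the 3 keratins of the rule, which is above the -0.56 of the cell cycle genes).

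Genes outside the lists were named by their ratio. Among the highest was Tesc, which encodes the calcium-binding protein tescalcin, with 119 CPM with Shi-Bi-Man and 4.88 CPM with imiquimod alone (595 against 4 counts, log2 4.44). Cobl, an actin nucleator gene, stood at 83.9 CPM with Shi-Bi-Man and 2.44 CPM with imiquimod alone. Dnase1l3, a secreted DNase, stood at 115 CPM with Shi-Bi-Man and 10.97 CPM with imiquimod alone. Capn9, a calpain, had 84 counts with Shi-Bi-Man and 0 with imiquimod alone, at least 4.59-fold higher against a floor of 3 counts, and Rab27a, a vesicle-transport GTPase, 61 counts with Shi-Bi-Man and 0 with imiquimod alone, at least 3.33-fold higher. Lce3c, a late cornified envelope gene, stood at 59.1 CPM with Shi-Bi-Man and 1.22 CPM, from 1 count, with imiquimod alone, and at a log2 ratio of -0.38 with no limit on the wound keratins.

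Among the lowest beside the alarmins was Glul, encoding glutamine synthetase, with 53.3 CPM with Shi-Bi-Man and 353 CPM with imiquimod alone. Rnase2b, a secreted ribonuclease, stood at 8.99 CPM with Shi-Bi-Man and 84.1 CPM with imiquimod alone. Sprr2a3, an envelope precursor, had 5.39 CPM with Shi-Bi-Man and 52.4 CPM with imiquimod alone. Kif26b, a kinesin gene, had 4.59 CPM with Shi-Bi-Man and 41.4 CPM with imiquimod alone. Pi15, a peptidase inhibitor gene, had 4.79 CPM with Shi-Bi-Man and 31.7 CPM with imiquimod alone. Nme5 came out low too, but all of its 43 counts with imiquimod alone lay in 1 cell.

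Since Krt5 and Krt14 differed so widely, the ratios were also taken in spinous cells with Krt5 plus Krt14 under 20 per 10000, a subset chosen after the data were seen: 853 cells with Shi-Bi-Man and 55 with imiquimod alone. Of 9120 genes tested 1063 (11.7%) were at least 2-fold higher and 1180 (12.9%) at least 2-fold lower. Of the 1063, 537 had 0 counts with imiquimod alone and a ratio under 2-fold against the floor of 3 counts, and 526 were higher without them. The medians of the suprabasal, Skint and psoriatic lists kept their direction. The subset is a part of all spinous cells, so a kept direction was in part given in advance. Of 19 suprabasal genes 5 were higher and 2 lower (median 0.70), of 11 Skint genes 6 and 0 (1.18), and of 22 psoriatic and interleukin-17 genes 0 and 11 (-0.88). Without the genes of the rule these were 5 higher and 2 lower of 17 suprabasal genes (0.72), and 0 higher and 8 lower of 19 psoriatic genes (-0.68). Krt77 stood at 2717 CPM with Shi-Bi-Man and 22.1 CPM with imiquimod alone. Mt4 stood at 1220 CPM with Shi-Bi-Man and 252 CPM with imiquimod alone. S100a8 stood at 12.9 CPM with Shi-Bi-Man and 4370 CPM with imiquimod alone. The log2 ratios were 6.80, 2.26 and -8.39, so that Krt77 and S100a8 lay farther apart and Mt4 slightly less far apart than among all spinous cells.

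Markers of other cells differed between the spinous sums as well. All 12 marker lists were summed. Fibroblast markers stood at 2583 CPM with Shi-Bi-Man and 1147 CPM with imiquimod alone (91206 and 61655 CPM in fibroblast-range cells). T-cell markers stood at 24.4 CPM with Shi-Bi-Man and 79.2 CPM with imiquimod alone (34.4 and 94.6 CPM in fibroblast-range cells). Follicle stem and outer root sheath markers stood at 109 CPM with Shi-Bi-Man and at 302 CPM with imiquimod alone, where 1 of 6 was at 0. Endothelial markers stood at 20.4 CPM with Shi-Bi-Man and 20.7 CPM with imiquimod alone. Melanocyte markers stood at 18.4 CPM with Shi-Bi-Man and at 2.4 CPM with imiquimod alone, where 2 of 3 were at 0. Summed basal markers stood at 3752 CPM with Shi-Bi-Man and 9052 CPM with imiquimod alone. Without Krt5 and Krt14 their order turned round, at 1461 CPM with Shi-Bi-Man and 1020 CPM with imiquimod alone. Spinous markers stood at 58513 CPM with Shi-Bi-Man and 39890 CPM with imiquimod alone. Markers of other keratinocyte states stood at 507 CPM with Shi-Bi-Man and 116 CPM with imiquimod alone for granular cells, at 890 CPM with Shi-Bi-Man and 1862 CPM with imiquimod alone for the upper follicle, and at 584 CPM with Shi-Bi-Man and 5369 CPM with imiquimod alone for stress states. These sums include genes that chose the cells. Without them the spinous markers stood at 11726 CPM with Shi-Bi-Man and 6324 CPM with imiquimod alone. The granular markers stood at 237 CPM with Shi-Bi-Man and 60.9 CPM with imiquimod alone. The upper-follicle markers left were Krt17 and Defb6, at 366 CPM with Shi-Bi-Man and 1123 CPM with imiquimod alone. Krt17 is also described above as a wound keratin, so this sum is not particular to the follicle. The stress markers left were S100a8 and S100a9, at 32.2 CPM with Shi-Bi-Man and 4000.4 CPM with imiquimod alone. Collagen and decorin transcripts reached 100 per 10000 in 52 spinous cells with Shi-Bi-Man and 3 with imiquimod alone. Without the collagen-rich cells, the log2 ratios of Krt77, Mt4 and S100a8 were 5.73, 2.48 and -7.25. Free RNA was assumed, not measured, at 5% of each sum with the profile of its library. After its subtraction from the sums of all spinous cells the ratios were 5.75, 2.47 and -7.27, and larger amounts were not tried. The part of the other markers in the differences above was not tested.

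To place the spinous cells between their neighbours, they were set beside 136 granular-range cells, which failed the rule by Lor, Flg and Flg2 alone, and beside Krt5/Krt14-range cells, which had Krt5 plus Krt14 of at least 50 per 10000 and Krt1 plus Krt10 under 100 (571 cells with Shi-Bi-Man, 908 with imiquimod alone). The neighbours were chosen by keratinocyte transcripts, so the ratios describe an order and do not test it. The imiquimod library had 1 granular-range cell, and no comparison was made there.

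Within the Shi-Bi-Man library, spinous cells differed from granular-range cells in 1817 of 10329 genes that were at least 2-fold higher (17.6%) and 811 that were at least 2-fold lower (7.85%), with a median of 0.20; TMM scaling moved the median by -0.20 and gave 1364 and 1165. Of the 1817, 215 had 0 counts in granular-range cells and a ratio under 2-fold against the floor of 3 counts. Suprabasal and envelope genes were lower in spinous cells, 11 of 20 with 1 higher (median -1.36), and so were barrier lipid genes, 12 of 31 with 0 higher (-0.81), and proteases and inhibitors, 10 of 25 with 1 higher (-0.79). Without Krt1, Krt10 and Cst6 these were 11 of 18 suprabasal genes (-1.60) and 9 of 24 proteases and inhibitors (-0.72). Basal genes were higher, 16 of 19 with 0 lower (2.26), and so were cell cycle genes, 14 of 29 with 0 lower (0.97). Hornerin stood at 55.7 CPM in spinous and 1922 CPM in granular-range cells. Corneodesmosin stood at 24.8 CPM in spinous and 721 CPM in granular-range cells. Lce1f, a late cornified envelope gene, stood at 72.1 CPM in spinous and 1573 CPM in granular-range cells. Wfdc21, a whey acidic protein gene, stood at 6.79 CPM in spinous and 551 CPM in granular-range cells. Dsg3 ran the other way at 63.1 CPM in spinous and 4.31 CPM in granular-range cells, as did Fcgbp, an immunoglobulin-binding mucin-like protein gene, at 82.9 CPM in spinous and 5.74 CPM in granular-range cells. Slc27a3 and Sox15 had 0 counts in granular-range cells and were at least 5.84-fold and 3.71-fold higher in spinous cells.

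The spinous markers themselves did not share a course. Krt77 stood at 2243 CPM in spinous cells, 4229 CPM in granular-range cells and 127 CPM in Krt5/Krt14-range cells of the Shi-Bi-Man library. Krtdap stood at 8400, 10873 and 710 CPM along the same order of cells, and Mt4 at 1083, 360 and 67.5 CPM. Of these 3, Mt4 alone was higher in spinous cells than in either neighbour.

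Against Krt5/Krt14-range cells of that library, 768 of 11334 genes were at least 2-fold higher in spinous cells (6.78%) and 2763 at least 2-fold lower (24.4%), with a median of -0.42; TMM scaling moved the median by 0.40 and gave 1294 and 1624. Suprabasal genes were higher in 17 of 20 with 0 lower (median 3.16), proteases and inhibitors in 15 of 25 with 0 lower (1.998), barrier lipid genes in 18 of 31 with 6 lower (1.24), desmosome genes in 8 of 13 with 3 lower (1.20) and Skint genes in 11 of 11 (3.15). Basal genes were lower in 14 of 19 with 0 higher (-1.86), and cell cycle genes in 26 of 29 with 1 higher (-2.74). Without the genes that chose the cells, Krt5 and Krt14 included, suprabasal genes were higher in 15 of 18 (2.90), proteases and inhibitors in 14 of 24 (1.82), and basal genes lower in 12 of 17 (-1.83). Psoriatic and interleukin-17 genes were higher in 11 of 24 with 3 lower (0.90), and in 9 of 21 with 3 lower without the rule's keratins (0.87). Among the named genes, Ly6m stood at 138 CPM in spinous and 1.75 CPM in Krt5/Krt14-range cells. Tdh, the threonine dehydrogenase gene, stood at 374 CPM in spinous and 8.15 CPM in Krt5/Krt14-range cells. Skint10 stood at 113 CPM in spinous and 3.49 CPM in Krt5/Krt14-range cells. Slc6a20a, an amino acid transporter gene, was at least 11.9-fold higher in spinous cells. Lower were the hair follicle transcription factor gene Lhx2, at 2.80 CPM in spinous and 134 CPM in Krt5/Krt14-range cells, the signalling antagonist gene Sostdc1, at 10.98 CPM in spinous and 317 CPM in Krt5/Krt14-range cells, and the growth factor gene Ptn, at 14.2 CPM in spinous and 325 CPM in Krt5/Krt14-range cells. Lhx2 and Sostdc1 are known from hair follicle cells, and the Krt5/Krt14 range was not limited to interfollicular ones.

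In the imiquimod library 611 of 10606 genes were at least 2-fold higher in spinous than in Krt5/Krt14-range cells (5.76%) and 1575 at least 2-fold lower (14.9%), with a median of -0.20. Of the 1575, 49 had 0 counts in spinous cells and a ratio under 2-fold against the floor. Suprabasal genes were higher in 14 of 16 with 0 lower (median 2.82), Skint genes in 7 of 8 with 0 lower (3.44), and basal genes lower in 8 of 19 with 0 higher (-0.81). Cell cycle genes were lower in 17 of 29 with 1 higher (-1.27). Psoriatic and interleukin-17 genes were higher in 14 of 25 with 3 lower (1.40). Without the genes that chose the cells, suprabasal genes were higher in 12 of 14 (2.42), basal genes lower in 8 of 17 (-0.89), and psoriatic genes higher in 12 of 22 with 3 lower (1.38). S100a8 stood at 17.2 CPM in spinous and 9.31 CPM in Krt5/Krt14-range cells with Shi-Bi-Man, and at 2601 CPM in spinous and 1011 CPM in Krt5/Krt14-range cells with imiquimod alone, so that the gap between the libraries was present in both kinds of cell. Krt77 stood at 127 CPM in Krt5/Krt14-range cells with Shi-Bi-Man and at 3.73 CPM with imiquimod alone.

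**Figure D4:**
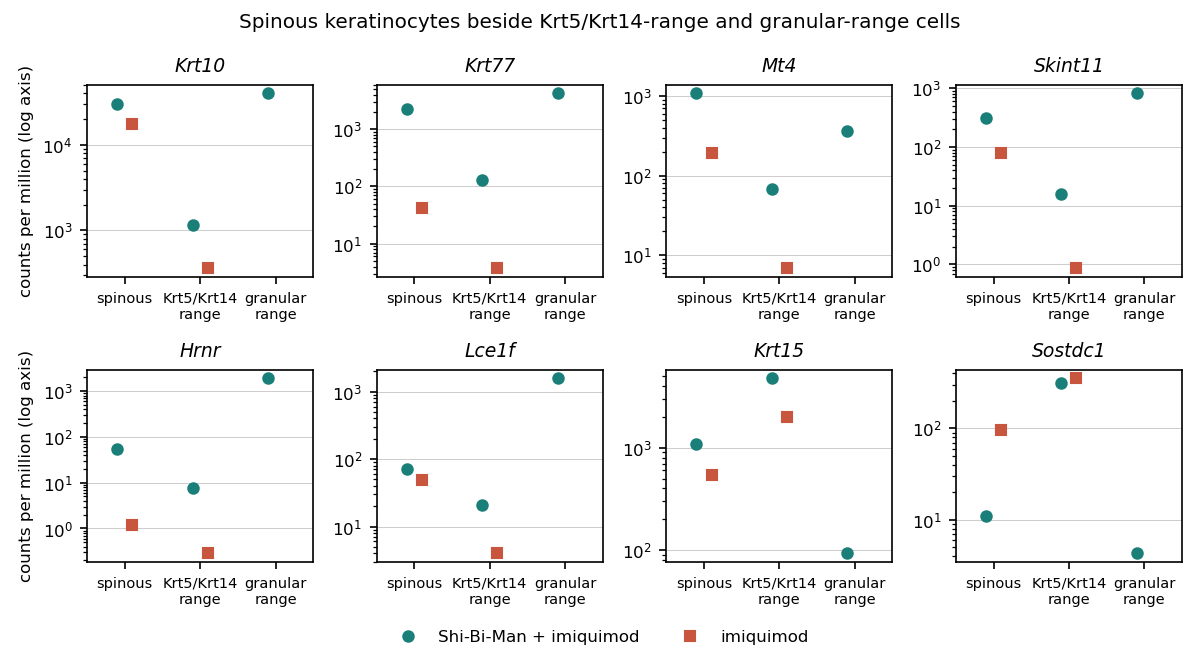
Levels of 8 genes in CPM on a log axis in spinous, Krt5/Krt14-range and granular-range cells, with circles for Shi-Bi-Man and squares for imiquimod alone; the granular range of the imiquimod library (1 cell) is not drawn. Hrnr and Lce1f are far higher in the granular range (1922 and 1573 CPM) than in spinous cells, Mt4 is highest in spinous cells, and Krt77 with Shi-Bi-Man stands at 2243, 127 and 4229 CPM along the axis.

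The spinous cells also varied among themselves along the loss of the basal keratins. Those of each library were ranked by Krt5 plus Krt14 and divided into 3 near-equal sets: low, middle and high, of 385, 384 and 384 cells with Shi-Bi-Man and 58, 57 and 57 cells with imiquimod alone. The sets do not span the same range. With Shi-Bi-Man the low set was at 0 throughout and the high set ran from 9.52 to 538 per 10000, and with imiquimod alone the low set ran from 0 to 23.0 and the high set from 85.4 to 436. The middle set with Shi-Bi-Man ran from 0 (4 cells) to 9.46, with a median of 3.22. It is thus set apart from the low set by few counts per cell. Its median depth was 4730.5 counts, against 3906 in the low set. Medians of Krt1 plus Krt10 in the low, middle and high sets were 479, 505 and 253 per 10000 with Shi-Bi-Man, and 440, 271 and 186 with imiquimod alone.

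With Shi-Bi-Man 1178 of 8886 genes were at least 2-fold higher in the high than in the low set (13.3%) and 321 at least 2-fold lower (3.61%), with a median of 0.22. In members with at least 1000 counts these shares were 13.3% and 3.47%. Basal genes were higher in 15 of 19 with 0 lower, or in 13 of 17 without Krt5 and Krt14, which ranked the cells (median 1.99), and cell cycle genes in 24 of 29 with 0 lower and a median of 2.25. Krt15 stood at 216, 361 and 2739 CPM in the low, middle and high sets. Ccnb2 stood at 27.7, 24.7 and 176 CPM, and Mki67 at 9.46, 5.77 and 97.4 CPM, so both were highest in the set with the most basal keratin. Suprabasal genes were lower in the high set in 12 of 18 with 0 higher, or in 12 of 16 without Krt1 and Krt10. Sprr1a stood at 16427, 14440 and 6032 CPM, Mt4 at 1166, 1289 and 765 CPM, and Skint11 at 406, 396 and 139 CPM. Krt77 was highest in the middle set, at 2340, 3190 and 1043 CPM.

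With imiquimod alone 382 of 3903 genes were at least 2-fold higher in the high than in the low set (9.79%) and 281 at least 2-fold lower (7.2%), with a median of 0.12. In members with at least 1000 counts they were 9.77% and 7.05%. Basal genes were higher in 12 of 18 with 1 lower, or in 10 of 16 with 1 lower without Krt5 and Krt14 (median 1.59). Suprabasal genes were lower in 7 of 13 with 0 higher, or in 6 of 11 without Krt1 and Krt10. Krt15 stood at 129, 666 and 746 CPM in the low, middle and high sets, and Skint11 at 159, 71.5 and 22.2 CPM. Cell cycle genes were higher in 3 of 11 with 0 lower and a median of 0.40; Mki67 stood at 58.4, 15.1 and 82.5 CPM. Of 20 psoriatic and interleukin-17 genes 2 were higher and 6 lower in the high set, or 2 and 5 of 17 without the rule's keratins. S100a8 stood at 4149, 2594 and 1431 CPM and Serpinb3a at 722, 343 and 162 CPM, so that both were highest in the imiquimod cells with the least Krt5 and Krt14. Fibroblast markers were lower in the high set too, with Col1a1 at 555, 177 and 95.2 CPM, and so was the T-cell receptor gene Trdc at 66.8, 22.6 and 12.7 CPM. The part of other cells' RNA in this gradient was not tested.

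**Figure D5:**
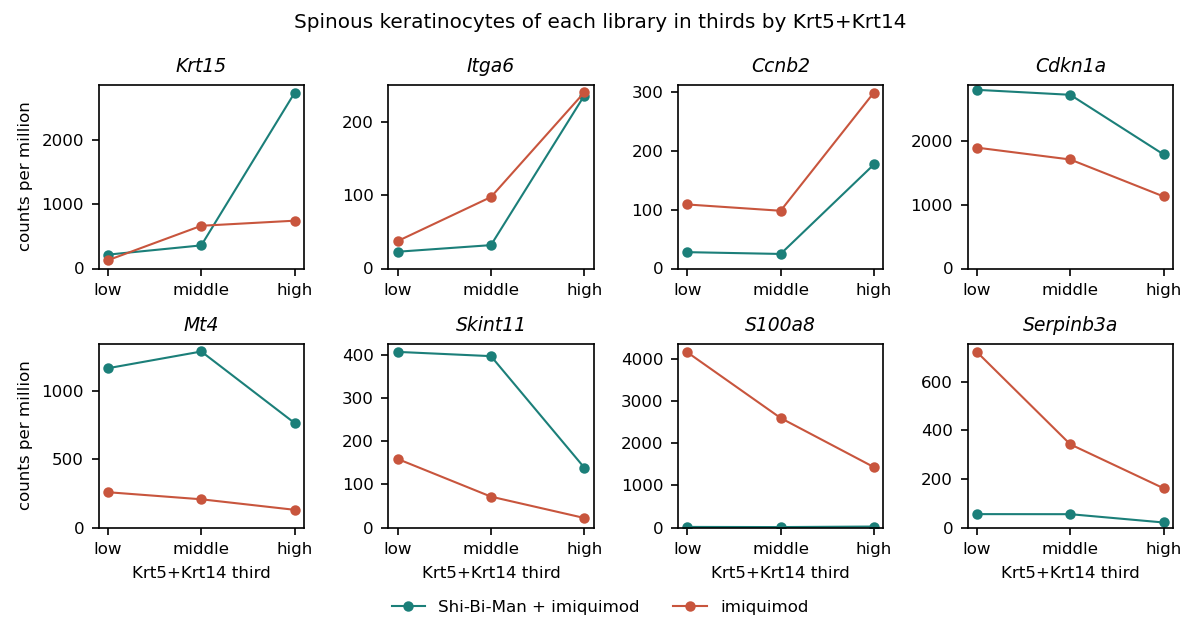
Levels of named genes in CPM in the low, middle and high sets of spinous cells ranked by Krt5 plus Krt14, on linear axes from 0, with a line for each library. Krt15 and the cell cycle gene Ccnb2 are highest in the high set of either library, Skint11 is lowest there, and S100a8 is above 1000 CPM in every imiquimod set and under 25 CPM in every set with Shi-Bi-Man.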

How the data were processed

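The deposited matrices hold whole-number counts per gene and cell barcode, per the file headers and values, from 3′ transcriptome libraries of dorsal skin; the submitters' processing notes name mm10 and GRCm38. How reads were aligned, counted and collapsed is not given in the sources used here. Every barcode held at least 500 counts, so the authors' files are filtered. Values per 1000000 (CPM) and per 10000 counts were computed from these counts. Cells were summed per library and kind of cell, with exact Poisson intervals for CPM, Clopper-Pearson intervals for shares and exact conditional binomial intervals for ratios, all at 95% and for counting error only. With 1 library per group no test across genes was run. A gene entered a comparison with at least 20 counts over both sums. Fibroblast-range cells had Col1a1, Col1a2, Col3a1 and Dcn of at least 100 per 10000 and Krt5 plus Krt14 under 50 per 10000; for levels and thinned shares of other genes in them, Krt1 and Krt10 were included in that limit.

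The members, markers and gene lists were chosen with earlier results of these data known. The genes named by ratio were those with at least 50 counts and, on the higher side, a CPM no lower than in all retained cells of that library, leaving out mitochondrial, ribosomal protein, haemoglobin and unnamed genes: the 10 highest and 10 lowest ratios of a comparison were drawn on, with the 4 most abundant members of each list, the markers and the genes of the rule. Other list members in the text were chosen after their values were seen. Symbols came from the deposited gene table, coordinates from GENCODE vM21 and promoters from RefSeq.

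Doublets were marked with Scrublet (scanpy 1.11.5, expected rate 0.08) as an alternative only. It marked 83 of 7946 cells (1.04%), 28 of them spinous, with Shi-Bi-Man, and 0 of 11019 with imiquimod alone, where it did not work; doublets were otherwise kept. Alternatives were other limits of the rule and of cell quality, TMM (edgeR 4.0.16) and DESeq2 1.42.0 scaling of the sums, other count minimums and subtraction of 5% of the library profile as free RNA. Calculations used Python 3.11.15, numpy 2.4.6, scipy 1.17.1, pandas 2.3.3 and R 4.3.3. The ratio step was tested on Poisson counts simulated per gene and library. Such counts do not vary beyond counting error, and the summing of cells was not part of that test.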

Additional observations from a re-analysis of the deposited data

How the results depend on the processing

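The log2 ratio of the spinous share (3.21) kept its sign under every alternative run. It stood at 3.57 with Krt1 plus Krt10 of at least 200 per 10000, at 3.81 and 2.76 with Krt6a, Krt6b and Krt16 under 15 and under 60, at 2.85 with no limit on Krt79 and Cst6, and, in settings chosen after the data were seen, at 2.30 with no limit on the wound keratins and 2.002 with the Krt1 and Krt10 condition alone; the other alternatives moved it by less than its counting interval. The 1675 of 10502 genes past 2-fold between the libraries became 822 of 8015 (376 higher, 446 lower) from 50 counts on. With no minimum above 1 count they became 7885 of 20396 (1474 higher, 6411 lower). From 50 counts on, the 2628 of 10329 genes against granular-range cells became 1665 of 7831. The 3531 of 11334 against Krt5/Krt14-range cells became 2353 of 8847. In each comparison the genes past 2-fold then fell by a larger part than the genes tested, so many calls rest on low counts. Of the 373 list genes tested, 97 were past 2-fold, and this count stayed within 1.5 times under each alternative run.

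Of the genes past 2-fold between the libraries, 1037 of the 1122 still tested kept their sign in members with Krt5 plus Krt14 under 20 per 10000, and 1636 of 1675 with no limit on the wound keratins. These settings share cells with the main set, in which the genes were picked, so a kept sign was in part given in advance. Among the genes past 2-fold that are in the lists or named by ratio, these changed sign. With Krt1 plus Krt10 of at least 200, Gbp7 stood at 0.24 and Rtp4 at 0.42. With Lor, Flg and Flg2 under 10, Cdsn stood at -0.14 and Rptn at 0.64, and Rptn stood at 1.10 with Krt79 and Cst6 under 25. Cspg4 stood at 0.063 with the wound keratins under 15, and Klk7 at -1.04 with no limit on Krt79 and Cst6. With no limit on the wound keratins, Cdsn stood at -0.42, Gbp7 at 0.076, Lce3c at -0.38, Lce3e at -1.89, Lypd5 at -0.84 and Sprr2h at -0.053. In members with Krt5 plus Krt14 under 20, Col1a1 stood at -0.013, Gbp2 at -0.45, Gbp7 at 0.38, Ptn at 1.11, Rtp4 at 0.74, Slc27a4 at 0.25 and Tyms at 1.54. With free RNA subtracted, Cd52 stood at 3.03 and Cd74 at 0.83. The cause was not tested. Of the other gene values 832 moved beyond the counting interval and 9730 did not.

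No paired analysis was possible because each group had 1 library. Depth limits the imiquimod sum: 172 cells and 820414 counts put a gene at 0 below a floor of 3 counts. Animals, handling and library cannot be told apart from treatment.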

Other observations

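The Krt1/Krt10-high cells left out by Krt6a, Krt6b and Krt16 alone also differed between the libraries. They were 28 cells with Shi-Bi-Man and 160 with imiquimod alone. S100a8 stood at 29.2 CPM in them with Shi-Bi-Man and at 7739 CPM with imiquimod alone. Krt77 and Mt4 stood at 1964 and 1060 CPM with Shi-Bi-Man, and at 12.3 and 67.7 CPM with imiquimod alone. These sums held 102847 counts with Shi-Bi-Man and 975561 with imiquimod alone. The lower value of S100a8 and that of Krt77 therefore rest on few counts. The differences in these 3 genes thus had the same direction on either side of the wound-keratin limit. These cells were looked at after the data were seen, and with 1 library per group no test was made.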
